A study of Mus musculus with 10 samples.

Results

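The 42 genes described here make the machinery that copies DNA and divides the cell: 22 replication genes, from the helicase subunit Mcm2 to the cyclin Ccne2, and 20 mitosis genes, from Mki67 onward. They were read through every probe set whose annotation gave 1 gene symbol that is on the list, which found 94 of 45101 probe sets, for 41 of 18193 genes. Ccnb1 had no probe set with a single symbol and was dropped. Of the 41 genes, 38 (21 replication and 17 mitosis) passed the filter on dim probe sets and were tested, through 70 of 27022 tested probe sets. The dim ones were Tyms, Plk1 and Kif20a.

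The arrays came from C57Bl/6 mice aged 8 to 12 weeks, 1 mouse per array. In 5 mice sepsis was set off by cecal ligation and puncture (CLP), which lets gut bacteria into the abdomen. The 5 sham mice had their cecum brought out and handled only. Halothane anesthesia and a laparotomy were shared by both groups. Spleens were taken 6 h later and CD4+ cells were enriched by magnetic removal of other cells to about 91%, so some cells of other types remained. Values are Affymetrix probe set intensities on the log2 scale, with a floor at 6.14, below which values have no order.

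In a dividing cell the MCM ring is loaded on DNA by Cdc6 and Cdt1, is switched on by Cdc45 and the GINS complex, and opens the double helix for the polymerases. Mitotic cyclins with Cdk1 then drive entry into mitosis, Aurora and Polo kinases build the spindle, and the spindle checkpoint restrains Cdc20 until every chromosome is attached. Resting T cells hold little of this machinery and make it after antigen, while erythroid precursors in the mouse spleen divide actively. In general, E2F factors act through promoters of replication genes, and the DREAM and FOXM1 complexes act through the CHR element, often beside CCAAT boxes, in promoters of mitosis genes.

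The promoters of 4 members are printed with these letters marked. Whether the letters bear on how the members moved between mice was not tested. RefSeq (GRCm38.p6) held promoter entries for 33 of the 42 genes, 18 replication and 15 mitosis. Only the 250 bases before the start are shown and searched, 5′ to 3′ on the gene's strand. Where a gene had several entries, the first by position was counted. The E2F letters searched were TTGGCGC, the form TTCCCGC, the form TTCGCGC and the form TTGCCGC. The CHR letters were TTTGAA, and the third motif was the CCAAT box. Capitals mark any of these on either strand, and matches that overlap run together.
Mcm6 (chr1:128359706-128359955, minus strand): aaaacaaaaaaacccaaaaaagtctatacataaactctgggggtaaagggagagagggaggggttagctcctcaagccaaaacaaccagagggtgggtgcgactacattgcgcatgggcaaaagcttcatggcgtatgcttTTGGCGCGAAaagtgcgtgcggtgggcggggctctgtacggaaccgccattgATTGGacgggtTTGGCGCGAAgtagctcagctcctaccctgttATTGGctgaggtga
Rrm1 (chr7:102441445-102441694, plus strand): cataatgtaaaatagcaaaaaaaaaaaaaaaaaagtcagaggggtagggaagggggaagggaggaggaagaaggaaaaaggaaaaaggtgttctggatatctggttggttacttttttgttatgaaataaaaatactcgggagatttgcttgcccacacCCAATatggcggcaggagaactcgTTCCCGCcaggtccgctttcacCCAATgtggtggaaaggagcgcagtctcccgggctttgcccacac
Cdk1 (chr10:69352913-69353162, minus strand): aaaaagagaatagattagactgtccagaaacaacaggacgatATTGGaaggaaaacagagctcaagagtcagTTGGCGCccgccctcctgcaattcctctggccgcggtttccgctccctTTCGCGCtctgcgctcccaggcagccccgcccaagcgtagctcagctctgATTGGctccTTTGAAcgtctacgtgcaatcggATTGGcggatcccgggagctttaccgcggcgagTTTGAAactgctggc
Top2a (chr11:99024190-99024439, minus strand): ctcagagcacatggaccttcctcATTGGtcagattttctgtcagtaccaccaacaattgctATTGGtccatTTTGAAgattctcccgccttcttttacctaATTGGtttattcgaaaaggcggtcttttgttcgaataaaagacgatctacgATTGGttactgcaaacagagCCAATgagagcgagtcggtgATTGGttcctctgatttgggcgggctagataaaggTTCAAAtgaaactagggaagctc

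Mcm6 held the most E2F matches of the replication promoters (4, against 3 in Mcm5 and Pola1) and Top2a the most CCAAT matches. The E2F matches of Mcm6 overlap in pairs on opposite strands, while those of Pola1 are apart, so Pola1 held more separate ones. E2F letters were in 9 of 18 replication promoters (50%) and 3 of 15 mitosis promoters (20%), against 8.03% of 27025 genes' promoters of the same length. CHR letters were in 2 of 18 replication promoters (11.1%) and 6 of 15 mitosis promoters (40%), against 16.3% of all, and each of these 8 promoters also held CCAAT. The box itself was in 66.7% of the replication and 80% of the mitosis promoters, against 34.2% of all. These are counts of letters, with no test, and do not show binding.

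Neither the replication nor the mitosis genes separated septic from sham mice at 6 h. None of the 38 tested members rose or fell over all genes tested (limma, Benjamini-Hochberg adjusted p under 0.05), where 0.75% of 13073 genes did (0.199% rose and 0.551% fell). At an unadjusted p under 0.05 the count was 1 of 38 (2.63%), against 11.8% of all genes. In no member did the 5 CLP arrays lie all above or all below the 5 sham arrays, which happened in 3.13% of all genes. None of the 70 member probe sets passed either, against 0.703% of all probe sets, and their lowest adjusted p by limma was 0.437. At shares of 0.75% or 3.13%, finding none among 38 genes does not set the members apart from all genes. The means leaned upward: 29 of 38 members (76.3%) had a higher mean in CLP arrays, against 51.2% of all genes. The median log2 difference, CLP minus sham, was 0.11 for replication and 0.12 for mitosis genes, against 0.0046 for all genes. Single arrays moved these medians: for replication genes the median was 0.034 without CLP 1, 0.034 without CLP 2, 0.031 without sham 5, 0.21 without CLP 4 and 0.18 without CLP 5. For mitosis genes it was 0.078 without CLP 2, 0.060 without sham 5, 0.24 without CLP 4, 0.19 without CLP 5 and 0.23 without sham 2. In bulk RNA, a different number of dividing cells and a different amount of RNA per cell cannot be told apart.

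**Figure D1:**
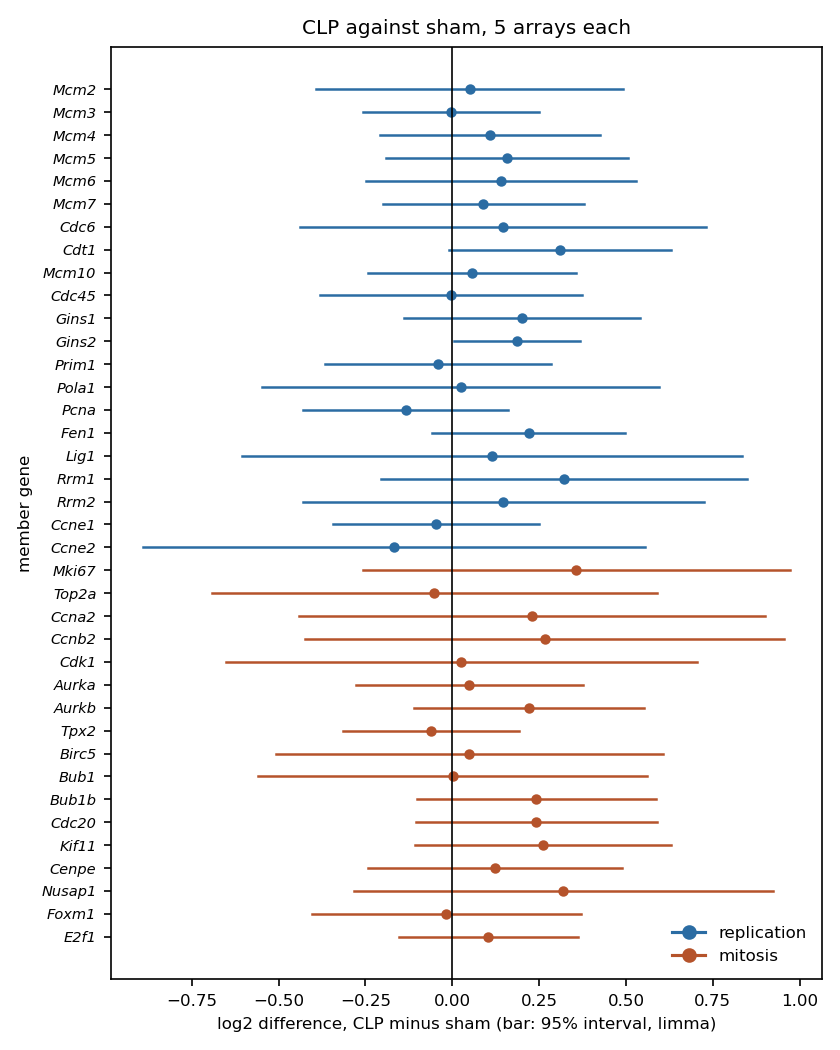
Log2 difference between CLP and sham for each of the 38 tested members, with its 95% interval from limma, 5 arrays in each group; blue marks replication and brown mitosis genes. The points lie between -0.17 (Ccne2) and 0.36 (Mki67), and the interval of every member but Gins2 includes 0.

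The MCM helicase subunits, which form the ring that unwinds DNA, stayed close together, with differences from -0.0033 (Mcm3) to 0.16 (Mcm5) and adjusted p from 0.859 to 0.999 by limma. In each list of values that follows, arrays run from replicate 1 to 5 and values are log2 signals. Mcm5 read 10.99, 11.04, 11.08, 10.86 and 11.10 in sham arrays and 11.57, 11.31, 11.33, 10.58 and 11.06 in CLP arrays. The CLP arrays were spread on both sides of the sham arrays, with CLP 4 lowest and CLP 1 highest of all 10. The means were 11.01 ± 0.096 (SD, n = 5) in sham and 11.17 ± 0.37 in CLP arrays. For Mcm2 the values were 10.54, 10.09, 10.53, 10.02 and 10.71 in sham and 10.81, 10.37, 10.58, 9.75 and 10.63 in CLP arrays. Here arrays 2 and 4 of both groups were the low ones, and the groups overlapped almost fully (difference 0.050 ± 0.20, SE).

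Those 4 arrays also had a low signal of 18S ribosomal RNA, under an intensity of 1000 on its middle probe set, while the other 6 were above it. With surgery and this 18S class in 1 fit, the brightest Mcm2 probe set was lower in the low class by limma (-0.57 ± 0.12, adjusted p = 0.00845). On it the 4 low arrays (9.75 to 10.37) did not overlap the other 6 (10.53 to 10.81). This did not hold on the other tested Mcm2 probe set, where the low class (7.60 to 8.99) overlapped the other arrays (7.98 to 8.49). Pola1, the catalytic subunit of the primase-polymerase complex, and Lig1, the ligase that joins Okazaki fragments, were higher in the low class (0.69 ± 0.17, adjusted p = 0.0216, and 0.84 ± 0.23, adjusted p = 0.031). These were 3 of 38 members (7.89%), against 14.5% of all genes: 2 were higher in the low class (5.33% of all genes were) and 1 was lower (9.22% of all genes were). By the brightest probe sets, Mcm2 was the only member whose classes did not overlap (2.63%), against 11.5% of all genes. The class was found from the data and is no group of the study.

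The loading and firing factors held the members nearest to the threshold. Gins2, a subunit of the GINS complex, read 8.24, 8.36, 8.26, 8.31 and 8.28 in sham and 8.47, 8.62, 8.49, 8.28 and 8.52 in CLP arrays. All CLP arrays but replicate 4 lay above all sham arrays. Its difference of 0.19 ± 0.083 (SE) was small, 1.14-fold, and had the lowest p of the members (adjusted p = 0.437 by limma). Cdt1, which loads the MCM ring together with Cdc6, gave 10.82, 10.87, 10.85, 10.71 and 10.81 in sham and 11.17, 11.41, 11.35, 10.54 and 11.14 in CLP arrays. Again CLP 4 stood alone, here below every sham array, while the other CLP arrays lay above every sham array. The difference was 0.31 ± 0.15 (adjusted p = 0.481), and without CLP replicate 4 Cdt1 passed at 0.45 (adjusted p = 0.0472), the only member called under any setting. Gins1 read 7.86, 8.12, 7.65, 8.07 and 7.60 in sham and 8.27, 8.45, 7.96, 7.84 and 7.77 in CLP arrays. CLP 1 and CLP 2 lay above the sham range and the others within it (0.20 ± 0.16). Cdc6, Cdc45 and Mcm10, which primes the helicase for unwinding, had differences of 0.15, -0.0046 and 0.057.

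Among the genes of the fork, Fen1, the nuclease that trims Okazaki fragments, read 11.61, 11.94, 11.47, 11.78 and 11.35 in sham and 11.84, 12.08, 11.85, 11.60 and 11.88 in CLP arrays. CLP 2 was the highest and sham 5 the lowest array, and the other CLP arrays lay within the sham range (0.22 ± 0.13). Pcna, the sliding clamp of the polymerases, went the other way on average, with 11.97, 12.17, 11.96, 12.23 and 11.75 in sham and 12.08, 12.20, 11.76, 11.62 and 11.74 in CLP arrays (-0.13 ± 0.13). The groups overlapped, and the values of Pcna spanned 1.53-fold. Prim1, Pola1 and Lig1 had differences of -0.041, 0.024 and 0.11, and Lig1 spanned 3.34-fold between its lowest array, sham 1, and its highest, CLP 2.

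Ribonucleotide reductase makes the deoxynucleotides for the fork. Its large subunit Rrm1 read 9.27, 9.86, 9.29, 9.73 and 9.08 in sham and 9.92, 10.58, 9.72, 9.36 and 9.27 in CLP arrays. CLP 2 was highest by a wide margin and sham 5 lowest (0.32 ± 0.24), and without CLP 2 the difference was 0.12. The small subunit Rrm2, which is made mainly in S phase, read 11.16, 11.21, 10.77, 10.95 and 10.13 in sham and 11.77, 11.04, 10.98, 10.31 and 10.83 in CLP arrays. CLP 1 was highest and sham 5 lowest, a span of 3.13-fold, while the group means differed by 0.15 ± 0.26. Tyms, thymidylate synthase, was at the floor in all 10 arrays for 3 of its 4 probe sets and in 6 arrays for the other, so it gave no level.

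Of the E cyclins, which start S phase with Cdk2, Ccne1 read 11.08, 10.94, 10.86, 10.84 and 10.40 in sham and 10.75, 10.54, 10.88, 10.68 and 11.03 in CLP arrays. The groups overlapped, and CLP 2, the highest array for many other members, was low on this probe set (-0.047 ± 0.14). The other tested Ccne1 probe set had CLP 2 as its highest array (8.04) and a difference of 0.11 ± 0.12. Ccne2 had the lowest difference of all members and the widest lower bound (-0.17 ± 0.33, 95% interval from -0.89 to 0.55).

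Mki67, the standard marker of cycling cells, had the largest difference of the mitosis genes, and it did not pass. It read 10.10, 10.12, 9.61, 9.80 and 9.01 in sham and 10.74, 10.55, 10.11, 9.50 and 9.53 in CLP arrays. CLP 1 and CLP 2 lay above every sham array, CLP 4 and CLP 5 lay below 4 of the 5, and sham 5 was lowest. The difference was 0.36 ± 0.28 (SE, adjusted p = 0.787 by limma), with a 95% interval from -0.26 to 0.97. Top2a, the topoisomerase that untangles sister chromatids, read 9.24, 10.21, 9.28, 9.75 and 9.0 in sham and 9.94, 10.07, 9.52, 8.98 and 8.71 in CLP arrays. Its highest array was sham 2 and its lowest CLP 5, and the means were nearly level (-0.052 ± 0.29).

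The mitotic cyclins and their kinase had wide spreads, and none passed between groups. Cdk1, the kinase that drives mitosis, read 8.38, 9.40, 8.44, 8.91 and 8.03 in sham and 9.02, 9.44, 8.73, 8.09 and 8.01 in CLP arrays. Both groups ran over the same range, with array 2 highest in each (0.027 ± 0.31). Ccna2 and Ccnb2, its cyclin partners, had differences of 0.23 ± 0.31 and 0.27 ± 0.31, and spanned 2.83-fold and 2.84-fold over the 10 arrays.

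Of the kinases of the spindle, Aurkb, which corrects chromosome attachments, read 7.15, 7.54, 7.40, 7.65 and 7.01 in sham and 7.76, 7.84, 7.56, 7.22 and 7.47 in CLP arrays. CLP 1 and CLP 2 lay above all sham arrays and the rest within their range (0.22 ± 0.15). Birc5 (survivin), its partner in the chromosomal passenger complex, read 7.51, 8.20, 7.20, 7.66 and 6.90 in sham and 7.49, 8.30, 7.22, 7.36 and 7.36 in CLP arrays. Array 2 was the high one in each group, and the means were level (0.049 ± 0.25). Aurka and its activator Tpx2 had differences of 0.049 and -0.062. Plk1, the Polo kinase, was at the floor in all 10 arrays.

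The spindle checkpoint kinase Bub1b read 8.42, 8.91, 8.53, 8.95 and 8.42 in sham and 9.22, 9.04, 8.96, 8.69 and 8.53 in CLP arrays. The highest 3 arrays were CLP 1, 2 and 3, and the other CLP arrays lay within the sham range (0.24 ± 0.16). Cdc20, which activates the anaphase-promoting complex, read 9.78, 9.98, 9.68, 9.72 and 9.61 in sham and 10.32, 10.26, 10.16, 9.50 and 9.74 in CLP arrays. The same 3 CLP arrays lay above all sham arrays, and CLP 4 lay below them all (0.24 ± 0.16). Bub1 gave 0.00099 ± 0.26. The motor Kif11, which pushes spindle poles apart, read 7.63, 7.90, 7.66, 7.71 and 7.39 in sham and 8.26, 8.22, 8.02, 7.37 and 7.73 in CLP arrays. It showed the order of Cdc20, with CLP 1, 2 and 3 on top and CLP 4 at the bottom (0.26 ± 0.17). This order is that of the brightest probe sets. On another tested Kif11 probe set CLP 4 was highest (7.30), while on the remaining tested probe set it was lowest (6.375). On the other tested Cdc20 probe set CLP 4 (9.90) lay above CLP 1, 2 and 3. The kinetochore motor Cenpe and the spindle protein Nusap1 had differences of 0.12 and 0.32, while Kif20a was at the floor in 8 arrays.

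E2f1, a factor that switches on replication genes, read 9.46, 9.12, 9.13, 9.01 and 9.16 in sham and 9.34, 9.28, 9.15, 9.05 and 9.57 in CLP arrays. Foxm1, which switches on mitosis genes, read 8.27, 7.79, 8.16, 7.83 and 7.60 in sham and 7.74, 7.69, 8.13, 7.59 and 8.40 in CLP arrays. On these brightest probe sets both were highest in CLP 5, an array in which the mitosis genes averaged -0.22 log2 units from their mean. This order did not hold on the other tested probe sets. There CLP 5 was the lowest array for Foxm1, and CLP 1 was the highest array for E2f1. On the brightest probe sets neither E2f1 nor Foxm1 passed between groups (0.10 ± 0.12 and -0.017 ± 0.18). Their spans were 1.47-fold and 1.75-fold, against a median of 1.93-fold for the mitosis genes.

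The spread between mice of one group was the larger feature. The median SD within groups, in log2 units, was 0.27 for replication and 0.31 for mitosis genes, against 0.20 for all genes, and 34 of 38 members lay above that median of all genes. The 10% of all genes with the highest SD held 14 of the 38, 6 replication and 8 mitosis genes, with Ccne2 (0.61), Lig1 (0.61), Ccnb2 (0.58), Cdk1 (0.57) and Ccna2 (0.57) at the top. Gins2 was at the other end, with an SD of 0.095. This compares spreads without a test, and members share the same 10 arrays.

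**Figure D2:**
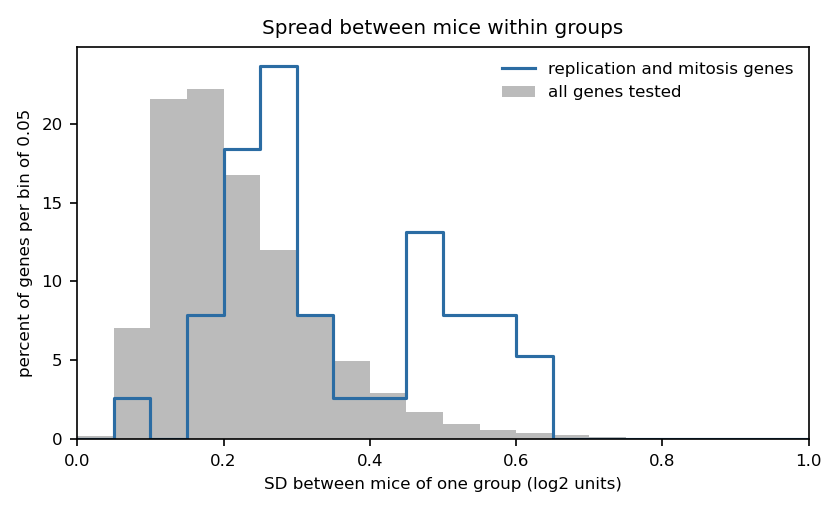
Standard deviation between the mice of one group, in log2 units, for all 13073 genes tested (grey bars) and for the 38 members (blue line), as the percent of genes in bins of 0.05. The members lie to the right of most genes, with medians of 0.29 against 0.20.

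The members went up and down together from mouse to mouse. CLP 2 was the highest of the 10 arrays for 18 of 38 members (47.4%, against 17.2% of all genes), CLP 1 for 10 (26.3%, against 8.51%) and sham 2 for 5 (13.2%, against 6.88%). The lowest array was sham 5 for 15 members (39.5%, against 13.7%) and CLP 4 for 14 (36.8%, against 16% of all genes). The highest array of the other members was CLP 5 for 2 (11.7% of all genes) and CLP 3, sham 1 and sham 4 for 1 each (5.09%, 4.7% and 8.63%). The lowest of the others was CLP 5 for 5 (13.2% of all genes), sham 1 for 3 (11.2%) and sham 4 for 1 (5.32%). Sham 5 was the highest array of no member, while it was so for 20.9% of all genes. Each group held a mouse with high and a mouse with low signals of these genes.

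**Figure D3:**
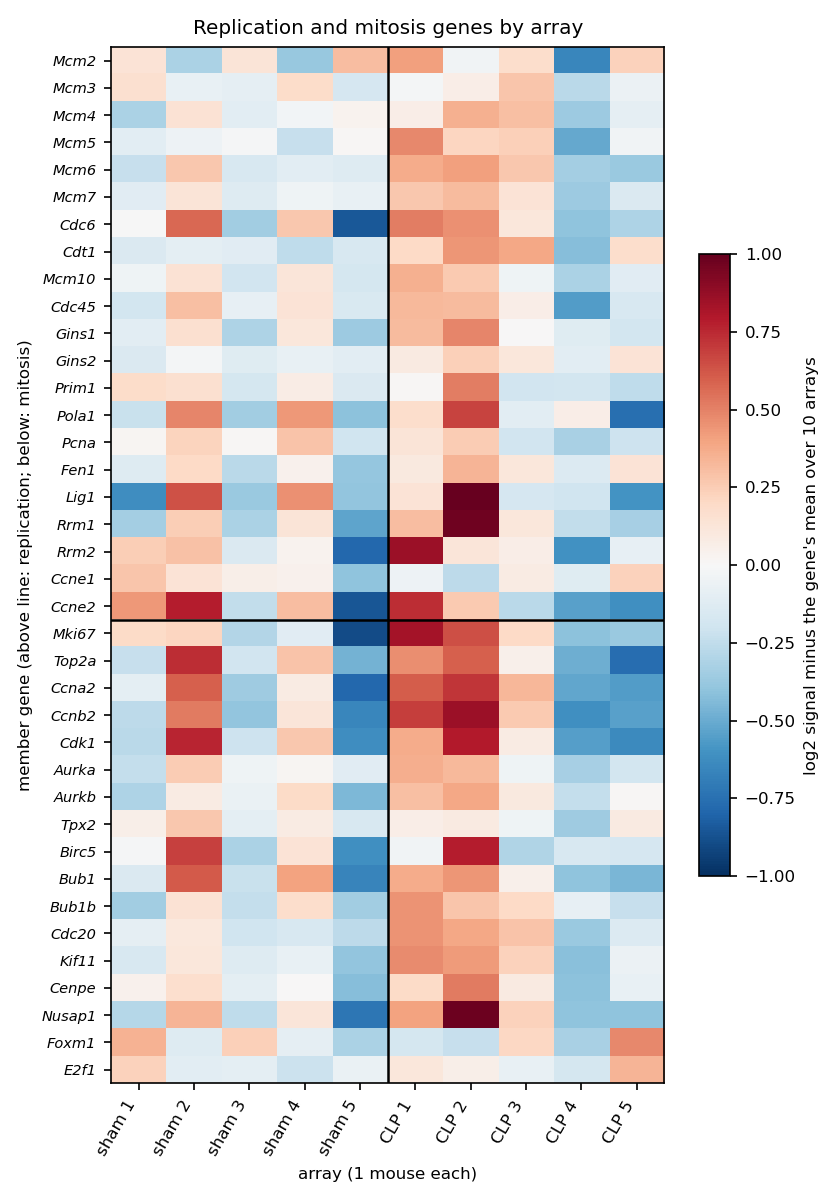
Log2 signal of each tested member in each array minus its mean over the 10 arrays, with red above and blue below the mean and the colours ending at 1 log2 unit; sham arrays are left and CLP arrays right of the vertical line. CLP 1, CLP 2 and sham 2 are mostly red and CLP 4 and sham 5 mostly blue, in both the replication rows above the line and the mitosis rows under it.

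Averaged over the replication members, each taken relative to its own mean, the sham arrays stood at -0.059, 0.21, -0.16, 0.071 and -0.28 log2 units and the CLP arrays at 0.27, 0.36, 0.071, -0.32 and -0.16. The mitosis averages followed, at -0.092, 0.32, -0.17, 0.073 and -0.47 in sham and 0.35, 0.47, 0.11, -0.37 and -0.22 in CLP arrays. The top arrays of both averages were CLP 2, CLP 1 and sham 2. The bottom arrays of both were CLP 4 and sham 5, in opposite order. Group means of the averages differed by less than the SD within groups, which was 0.24 for replication and 0.33 for mitosis genes.

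Markers of other cells moved with these averages in part. The erythroid markers (9 of 14 listed were tested, 7 of them with a higher mean in CLP) averaged 0.12, 0.10, -0.62, -0.019 and -0.56 in sham and 0.82, 0.48, 0.078, -0.19 and -0.21 in CLP arrays. So CLP 1 and CLP 2 were also the highest arrays for erythroid genes, and sham 3 and sham 5 the lowest. Their list mean on the log2 scale ran from 8.97 to 9.71 in sham and from 9.38 to 10.41 in CLP arrays. The lowest p was that of the erythroid membrane protein Slc4a1 (1.42 ± 0.57, adjusted p = 0.364 by limma), then of Rhag (0.77 ± 0.35, adjusted p = 0.449). The 2 with a lower mean in CLP were Tfrc (-0.13 ± 0.16) and Klf1 (-0.11 ± 0.21), and Car2 (0.023) and Epb42 (0.0063) were nearly level. B cell markers (9 of 12 tested) were highest in CLP 1 (0.59) and sham 1 (0.41), with a higher mean in CLP for 6, among them Ebf1 (0.19 ± 0.091) and Cd22 (0.14 ± 0.13), and a lower one for 3, among them Ms4a1 (-0.36 ± 0.34). Plasma cell markers (7 of 7 tested) ran from -0.14 to 0.26 in sham and from -0.32 to 0.18 in CLP arrays, with a higher mean in CLP for 2 and a lower one for 5, among them Irf4 (-0.28 ± 0.13) and Tnfrsf17 (-0.58 ± 0.30). Neutrophil and monocyte markers (13 of 14 tested, median 0.021) were highest in CLP 1 (0.91). Of these, 8 had a higher mean in CLP, among them Cd14 (0.72 ± 0.21) and Camp (0.86 ± 0.41), and 5 a lower one, among them S100a9 (-0.90 ± 0.55), S100a8 (-0.82 ± 0.56) and Fcgr3 (-0.53 ± 0.35). The averages of CD8 T cell and NK cell markers (6 of 9 tested, median 0.084) stayed between -0.093 and 0.099 in all arrays. Here Klrd1 (-0.54 ± 0.17) and Eomes (-0.40 ± 0.15) had a lower mean in CLP, and the other 4, Gzma (0.34), Cd8b1 (0.17), Cd8a (0.093) and Prf1 (0.075), a higher one. None of these markers passed over all genes tested, and their part in the members' signals was not tested.

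The CD4 T cell markers, which check the label, averaged 0.10, -0.064, 0.31, 0.10 and 0.38 in sham and -0.16, -0.35, -0.035, -0.14 and -0.15 in CLP arrays. Of the 10 tested, 9 had a lower mean in CLP arrays and none passed, with Trat1 (-0.72 ± 0.16, adjusted p = 0.0694 by limma) and Cd5 (-0.69 ± 0.17, adjusted p = 0.102) nearest. Thy1 (-0.79), Cd3g (-0.49) and Cd28 (-0.35) were also lower. The differences of Cd4 itself (-0.12 ± 0.13), Cd3e (-0.12), Cd3d (-0.12) and Lat (-0.061) were small, and Zap70 was higher (0.12). The list mean thus rests mostly on some of its genes. All 10, Cd4 and the CD3 chains among them, were measured well above the floor, with list means per array from 10.68 to 11.40. CLP 2, highest for the replication and mitosis averages, was lowest for these markers, and sham 5, lowest for the mitosis average, was highest. With the mean of these markers as a covariate, the median difference became -0.25 for replication and -0.34 for mitosis genes, and 7 of 38 members had a positive difference. With the erythroid mean as a covariate the medians were -0.074 and -0.097. No member passed in either fit, but with the CD4 marker covariate no gene of all those tested passed either. Both covariates differed between the groups: the CD4 marker mean stood at 0.17 in sham and -0.17 in CLP arrays, the erythroid mean at -0.20 and 0.20. The effects of surgery and of these covariates therefore cannot be fully told apart, and the changed signs do not show a fall after CLP.

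**Figure D4:**
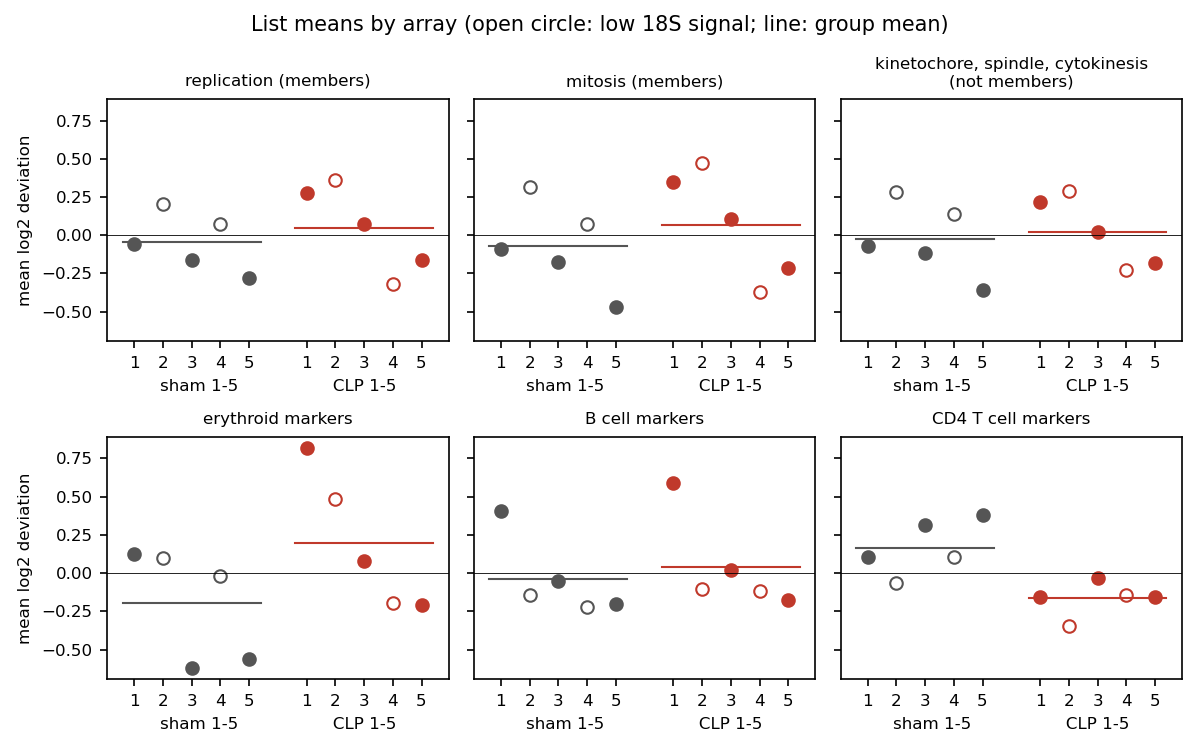
Mean log2 deviation of 6 gene lists in each array, each gene taken relative to its mean over the 10 arrays; grey points are sham and red points CLP arrays, open circles mark the 4 arrays with low 18S signal and lines the group means. The replication, mitosis and kinetochore panels share their high arrays (CLP 1, CLP 2, sham 2), the erythroid panel has CLP 1 and CLP 2 on top, and the CD4 panel is highest in sham 5 and lowest in CLP 2.

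Other genes of the same pathways were read from further lists. Of 19 tested genes of origin licensing and firing none passed (median 0.079, range -0.44 to 0.37, 13 with a higher mean in CLP), with Cdc7, the kinase that fires origins (-0.44 ± 0.14, adjusted p = 0.216 by limma), and Clspn, a fork checkpoint adaptor (0.37 ± 0.22), nearest. Of 21 tested genes of polymerases, clamp loading and nucleotide supply none passed (median 0.018, 12 with a higher mean in CLP), with Chaf1b, a histone chaperone of the fork (0.31 ± 0.094, adjusted p = 0.172), and Rrm2b, a p53-induced reductase subunit (-0.39 ± 0.17), nearest. Among 38 tested genes of the kinetochore, spindle and cytokinesis none passed either (median 0.074, 26 with a higher mean in CLP), with the condensin subunit Smc4 (-0.43 ± 0.12, adjusted p = 0.149) and the phosphatase Cdc25b (-0.38 ± 0.13) nearest. The averages of the kinetochore list were 0.22 and 0.29 in CLP 1 and CLP 2 and 0.28 in sham 2, and -0.36 in sham 5 and -0.23 in CLP 4, so its high and low arrays were those of the members. The other lists followed the members' order in part. The polymerase list was high in CLP 2 (0.24), CLP 1 (0.17) and sham 2 (0.14), but its low arrays were CLP 4 (-0.21), CLP 5 (-0.20) and sham 1 (-0.14), with sham 5 at -0.056. The origin list was high in CLP 2 (0.23), CLP 1 (0.11) and sham 2 (0.087) and low in CLP 4 (-0.15), CLP 5 (-0.12) and sham 1 (-0.10), with sham 5 at -0.088.

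The genes that hold cells in or release them from rest were measured beside them. Of 24 tested G1 cyclins, E2F factors and pocket proteins none passed (median 0.014), with Lin9, a subunit of the DREAM complex (-0.32 ± 0.082, adjusted p = 0.109), and Rbl1 (p107, -0.24 ± 0.11) nearest. Of 15 tested CDK inhibitors and quiescence factors 1 fell and none rose (median -0.0013), where 0.551% and 0.199% of all genes did. The 1 that fell was Tob1, an antiproliferative factor of resting T cells. It read 8.80, 9.31, 9.12, 9.34 and 9.05 in sham and 8.55, 8.61, 8.23, 8.48 and 8.01 in CLP arrays. Every CLP array lay below every sham array, and the difference was -0.75 ± 0.14 (1.68-fold lower, adjusted p = 0.0433 by limma). The call lies close to the threshold: it was lost without CLP replicate 2 (adjusted p = 0.0795), 3 (0.136) or 5 (0.112) and without sham replicate 1 (0.0505), 2 (0.0898), 3 (0.132), 4 (0.118) or 5 (0.0771), and over 25 other settings Tob1 passed in 10, with values from -0.96 to -0.65 and adjusted p from 0.0138 to 0.431. The next genes of that list were Tsc1, which restrains mTORC1 (-0.30 ± 0.13, adjusted p = 0.395 by limma), Cdkn2d (0.58 ± 0.25) and Cdkn2c (0.18 ± 0.080). As for Tob1, the groups did not overlap for Cdkn2c, which happened in 3.13% of all genes. Cdkn1b (p27), the main inhibitor of resting T cells, gave -0.0013 ± 0.078.

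Probe sets of a member did not always go the same way. Of 24 members with over 1 tested probe set, 14 had the same sign in all and 10 had both signs, with differences in Kif11 from -0.0035 to 0.26 and in Mcm3 from -0.0033 to 0.22.

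The sizes of the differences are bounded by the intervals. Over the 38 members the 95% limits reached at most 0.97 (1.96-fold, Mki67) upward and -0.89 (Ccne2) downward on the log2 scale. Larger mean differences lie outside every interval. The intervals are for 1 gene at a time, while a call was adjusted over all tested probe sets and is stricter. For the most variable members, differences beyond these limits could therefore also miss a call. In the 6 arrays of the high 18S class alone the medians were 0.23 for replication and 0.33 for mitosis genes and 36 of 38 members had a higher mean in CLP, and in the 4 arrays of the low class they were -0.066 and -0.10 and 10 of 38 did. No member passed in either class, but no gene of all those tested did either. These small fits therefore could not set the members apart by calls.

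**Figure D5:**
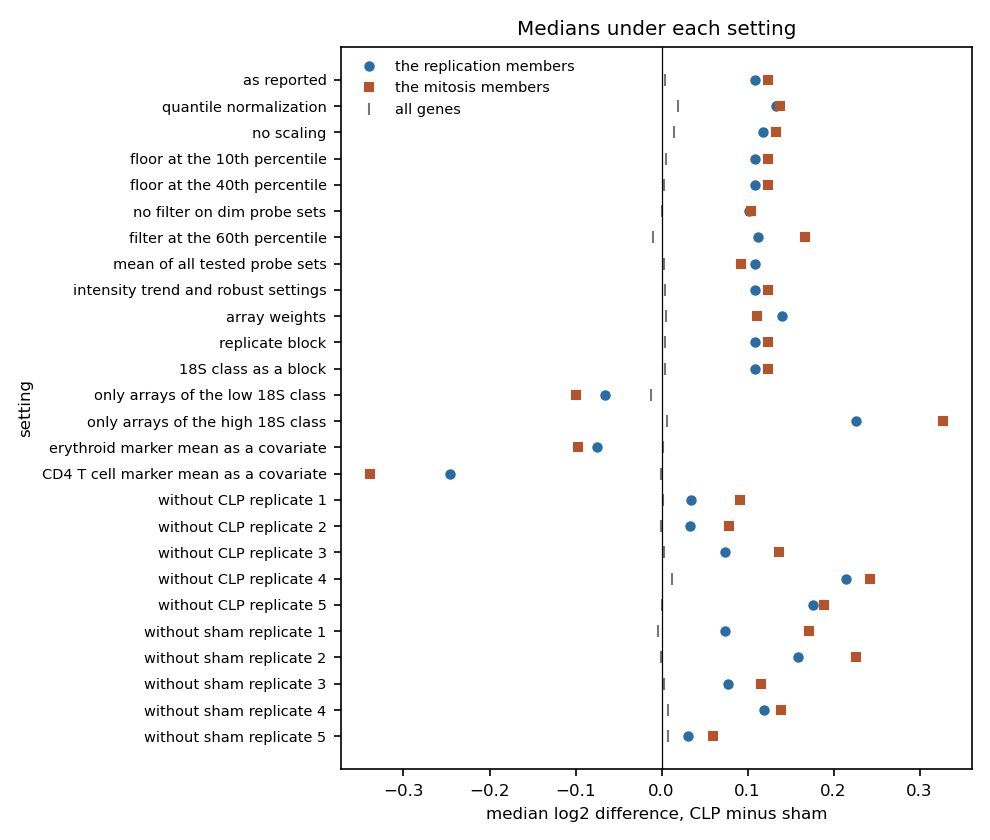
Median log2 difference, CLP minus sham, of the replication members (blue circles), mitosis members (brown squares) and all genes (grey ticks) under each setting. The medians of both member groups are above 0 except with only the arrays of the low 18S class and with the erythroid or CD4 marker mean as a covariate.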

How the data were processed

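RNA of CD4+ splenocytes from 10 mice was read on 1 Affymetrix array each, from biotin-labelled cRNA made in a two-round amplification, per the labels' protocols. The authors deposited 1 linear intensity per array for each of 45101 probe sets, from 0 to 20290, with 29 zeros and array medians from 127.6 to 142.4. The sources used here do not give the software, background correction or scaling. Precision is limited by the 10 arrays, and p-values measure the spread between these mice.

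Arrays were brought to 1 median, a floor was set at the 25th percentile (70.36) and values were put on the log2 scale. The 64 controls and probe sets whose mean fell under the 40th percentile (6.71) were removed. CLP and sham were compared in R 4.3.3 with limma 3.58.1 (lmFit and eBayes), with Benjamini-Hochberg adjustment over all 27022 probe sets and a threshold of 0.05, and checked on simulated data. Each gene was represented by the brightest of its tested single-symbol probe sets. Symbols came from the platform's annotation: 34945 probe sets had 1 symbol, 932 several and 9160 none here, and a lookup by Entrez identifier in RefSeq (GRCm38.p6) changed none.

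The members and all lists were chosen with earlier results of these data known. Members shown array by array were any past the threshold, the 5 with the lowest p in each group and 14 set genes (Ccnb1 and Tyms among them could not be tested). Of each other list the 2 with the lowest p and any past the threshold were named. Further genes named from those lists, such as Cdkn1b, lie outside this rule. The 18S class came from earlier results, and the CD4 covariate was added after seeing the data. Every sham title reads biological replicate 1, and its suffix, sham-1 to sham-5, was used as the replicate number. That the sham arrays are separate replicates rests on the design text, which names 5 biological replicates in each group. Alternatives were the scaling, floor, filter, averaging of probe sets, variance model, array weights, blocks, covariates and leaving out each array. Figures were drawn with matplotlib 3.10.9.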

Additional observations from a re-analysis of the deposited data

Results flagged for a closer look

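Birc5 in CLP 2 (log2 signal 8.30) lay far from the other CLP arrays (7.22 to 7.49): its gap to the nearest was 0.754 of the range, above Dixon's limit of 0.71 for 5 samples. This was 1 of 40 groups checked over the members shown array by array, and chance gives about 1 in 20.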

How the results depend on the processing

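Over 15 other settings and 10 fits without 1 array each, the only member called was Cdt1, without CLP replicate 4 (0 to 1 calls over the fits without 1 array). Pcna, Gins2, Cdt1 and E2f1 kept their sign in every setting, and the other 16 of 20 members shown array by array did not. The causes were not tested, beyond fewer arrays in some fits. Over all genes, 26 rose and 72 fell, against 0 and 1 with no filter on dim probe sets (more features tested), 80 and 167 with array weights, 88 and 267 with the 18S class as a block, 0 and 0 with only the low and 0 and 0 with only the high 18S class, 0 and 0 with the CD4 covariate, 35 lower with the erythroid covariate, and 0 to 69 higher and 2 to 179 lower without 1 array.

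With the replicate block, 44 genes were called higher, and no member was called. Same-numbered arrays were not treated as pairs in the main fit, since the labels name no pairing. Their deviations correlated at 0.176, 0.582, 0.384, 0.181 and 0.0633, all positive, with not every array closest to its own number. The arrays of low ribosomal RNA signal were replicates 2 and 4 in both groups. For most members shown array by array the block gave a lower SE than the main fit. Examples are Mki67 (0.14 against 0.28) and Mcm2 (0.11 against 0.20). The SE was higher for Gins2 (0.088 against 0.083) and Ccne1 (0.15 against 0.14). Whether same-numbered arrays shared a processing step was not tested, and the main intervals do not allow for it.

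With the CD4 covariate, which itself differed between the groups, the medians were -0.25 (replication) and -0.34 (mitosis). Signs turned there for Rrm1 (-0.37), Rrm2 (-0.40), Gins1 (-0.27), Fen1 (-0.17), Mki67 (-0.36), Cdk1 (-0.88), Cdc20 (-0.0013), Aurkb (-0.11), Bub1b (-0.044), Kif11 (-0.049), Birc5 (-0.94) and Foxm1 (0.067). With the erythroid covariate they turned for Rrm2 (-0.25), Gins1 (-0.022), Mki67 (-0.097), Cdk1 (-0.39), Birc5 (-0.23) and Foxm1 (0.040). In the low 18S class alone they turned for Mcm5 (-0.0014), Rrm2 (-0.40), Fen1 (-0.021), Cdk1 (-0.39), Cdc20 (-0.011), Aurkb (-0.066), Bub1b (-0.065), Kif11 (-0.012) and Birc5 (-0.10), and in the high class for Ccne1 (0.11), Top2a (0.22) and Foxm1 (0.080). Averaging probe sets turned Ccne1 (0.032) and Top2a (0.044), and array weights turned Birc5 (-0.094) and Foxm1 (0.013). Without 1 array each, values ran from -0.044 to 0.22 for Mcm2, -0.049 to 0.32 for Rrm2, -0.15 to 0.016 for Ccne1, -0.21 to 0.13 for Top2a, -0.17 to 0.22 for Cdk1, -0.14 to 0.23 for Birc5 and -0.14 to 0.068 for Foxm1. Without 1 array each the medians ran from 0.031 to 0.21 for replication and 0.060 to 0.24 for mitosis genes. Rrm1 ran from 0.12 to 0.45, Mcm5 from 0.058 to 0.30, Gins1 from 0.10 to 0.27, Mki67 from 0.18 to 0.50, Pcna from -0.22 to -0.068 and E2f1 from 0.032 to 0.18.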

Other observations

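The 2 tested probe sets of Mcm2 ordered the arrays differently. The brighter one was low in arrays 2 and 4 of both groups, the arrays with low 18S signal. The dimmer one read 7.98, 8.32, 8.28, 8.26 and 8.05 in sham replicates 1 to 5 and 8.49, 8.99, 8.17, 7.60 and 7.98 in CLP replicates 1 to 5, with CLP 2 highest, as for most replication genes, and CLP 4 lowest. The difference between CLP and sham was 0.050 by the brighter and 0.066 by the dimmer probe set. Which of them follows the Mcm2 transcript was not tested.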
